A study of Mus musculus with 2 samples.

Results

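Genes of heterotrimeric G protein signalling were compared between marginal zone (MZ) and follicular (FO) B cells of the mouse spleen. The set held every gene with a probe set of its own on the array whose symbol begins with Rgs, Gna, Gnb, Gng, Grk, Arrb or Gpr followed by the family's number or letters, together with Ffar2 and without Gpr183. These were 80 of the 12393 genes that had a probe set annotated to 1 gene. They comprised 30 genes grouped as receptors, mostly orphans, 15 genes of the G alpha, 5 of the G beta and 7 of the G gamma families, 17 RGS genes, 4 receptor kinases and 2 arrestins. Genes entered by symbol, except that Ffar2 was added and Gpr183 left out by name, and the set was chosen with earlier results of these data known. Some carry the name without the function, among them Gnasas1, an antisense RNA of the Gnas locus, and Gpr137b-ps, a pseudogene. Others grouped as receptors, such as Gpr137b, Gpr155 and Gpr108, are described below as proteins of the lysosome or Golgi.

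There was 1 single-channel Affymetrix array of marginal zone and 1 of follicular B cells. Both populations came from spleens of wild-type female C57BL/6 mice whose age the labels do not give, 3 mice per label. B cells were enriched with beads against B220 and sorted on CD21 and CD23, marginal zone cells as high for CD21 and intermediate for CD23, follicular cells as intermediate for CD21 and high for CD23. Sorted cells were pooled before lysis, and the labels leave unsaid if the 2 pools share mice. With 1 array per population there is no replicate error and hence no test; each difference is the size of a gap between 2 pools of cells.

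G proteins relay signals from receptors with 7 membrane-spanning helices. A receptor bound by its ligand makes the alpha subunit exchange GDP for GTP and part from the beta-gamma pair, and both parts act on enzymes inside the cell. RGS proteins end the signal by speeding GTP hydrolysis on the alpha subunit, while receptor kinases and arrestins silence the receptor itself. In the spleen, receptors that couple to Gi draw B cells towards chemokines and sphingosine-1-phosphate, and this balance places cells in the follicle or in the marginal zone.

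Values are MAS5 signals scaled to the same 2% trimmed mean. Dim MAS5 signals cannot be ordered, so any value under the median of all signals, 12.7, was raised to that floor before a ratio was taken. A gene counted as measured when its brightest probe set exceeded the floor on at least 1 array. A fold against an array below the floor is written "at least", and a log2 ratio against such an array is likewise a bound. Log2 ratios are MZ over FO signal. Signals of different probe sets depend on the probes and do not rank genes by transcript abundance. The sort was visible in its own genes, with Cr2, which encodes CD21, at 889.9 in MZ and 278 in FO cells, and Fcer2a, which encodes CD23, at 89.6 in MZ and 727 in FO cells. All 5 B cell markers on the array were measured, with 2 higher in MZ and 3 in FO cells and a median log2 ratio of -0.32. Ms4a1 was at 1878 in MZ and 1754 in FO cells, Cd79b at 546 in MZ and 1040 in FO cells (-0.93), Cd79a at 116 in MZ and 197 in FO cells (-0.77), Pax5 was at -0.32 and Ptprc, the gene of B220, at 0.06.

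Of the 80 genes, 42 were measured and 38 were below the floor on both arrays. The 38 had signals from 0.297 to 11.98. Of the 42, 19 were near background, with no signal above 25.3, which is 2 times the floor, and 23 were above it on at least 1 array. Signals above the floor on both arrays were found for 27 genes. Another 15 were above it on 1 array only, 6 on the MZ array and 9 on the FO array, so the direction of those 15 was fixed by the way they passed.

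Most of the measured genes were less than 2-fold apart, but the 19 near background could not reach 2-fold at this floor. At least 2-fold higher in MZ cells were 3 of 42, Ffar2, Rgs10 and Grk5, where 4.39% of all measured genes were. Under each of the 4 other scalings Gng12 made it 4 of 42. At least 2-fold higher in FO cells was 1 of 42, Arrb2, where 4.86% of all measured genes were. In either direction this made 9.52% of the 42, against 9.25% of all 7695 measured genes, so as a group these genes did not stand out from the array by their count of differences. Among genes above the floor on both arrays, 2 of the 27 and 8.74% of all genes were past 2-fold, and among genes above 2 times the floor 4 of the 23 and 13.5% of all genes were. The median log2 ratio was -0.12 over the 42 and -0.03 over all measured genes. In pools of sorted cells, fewer cells that carry a transcript and less of it per cell cannot be told apart.

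**Figure D1:**
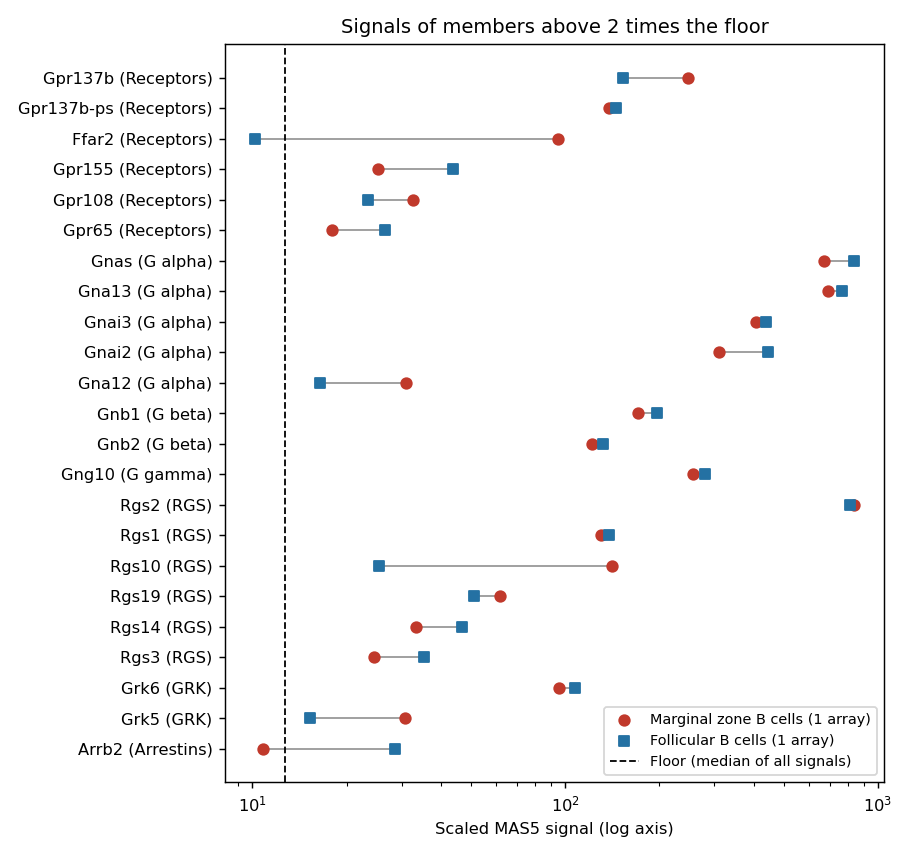
Scaled MAS5 signals (log axis) of the 23 genes above 2 times the floor, as red circles for the MZ array and blue squares for the FO array, joined by a line, with the floor of 12.7 dashed. The long lines belong to Ffar2 and Rgs10, both brighter on the MZ array, and most G protein subunits lie close together on both arrays.

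The receptor furthest apart was Ffar2, formerly named Gpr43, which senses the short-chain fatty acids acetate and propionate made by gut bacteria. Its brightest probe set had a signal of 94.8 in MZ cells and 10.2, below the floor, in FO cells. The signal was at least 7.48-fold higher in MZ cells, a log2 ratio of 2.90. A second probe set of the same gene gave 43.8 in MZ and 21.6 in FO cells, a log2 ratio of 1.02, so both probe sets placed it higher in MZ cells but differed widely in size. Ffar2 is also a gene of neutrophils. Of 5 neutrophil markers on the array, 3 were measured, 2 of them higher in MZ cells, and the summed signal of the 5 was 53.5 in MZ and 53.7 in FO cells. On the MZ array 3 of the 5 were below the floor and on the FO array 4, so the sums are mostly of signals too dim to be ordered. Ngp was at 17.9 in MZ and 11.8 in FO cells, Elane at 14.4 in MZ and 8.89 in FO cells, and S100a9 at 0.792 in MZ and 14.8 in FO cells. The part of neutrophils in the Ffar2 difference was not tested.

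Of the other 13 measured receptors 0 reached 2-fold, but 8 of them were near background and could not reach it at this floor. Below the floor on 1 array, and so with only a bound, were 7 of the 13. With no floor, Gpr37 and Gpr85 were past 2-fold in MZ and Gpr83, Gpr84 and Gpr182 in FO cells. Of all measured genes, 10.2% in MZ and 11.3% in FO cells then were. Gpr137b, a protein of the lysosomal membrane, was at 247 in MZ and 153 in FO cells, 1.61-fold higher in MZ cells. Its 3 measured probe sets ran from -0.61 to 0.69 on the log2 scale, and the probe set of the near-identical pseudogene Gpr137b-ps was at 138 in MZ and 145 in FO cells, so the probes may not tell transcripts of these copies apart. Gpr155, a lysosomal protein that binds cholesterol, went the other way, at 25.2 in MZ and 43.9 in FO cells, a log2 ratio of -0.80. Gpr65, a receptor that senses protons and couples to Gs, was dim, at 17.9 in MZ and 26.6 in FO cells. Gpr108, a Golgi protein, was at 32.6 in MZ and 23.4 in FO cells. Gpr155, Gpr65 and Gpr108 were singled out after their values were seen, as the other receptors above 2 times the floor. The remaining 8 measured receptors, Gpr180, Gpr182, Gpr19, Gpr37, Gpr45, Gpr83, Gpr84 and Gpr85, were near background, and 7 of them were above the floor on 1 array only. Below the floor on both arrays were Gpr3, Gpr12, Gpr27, Gpr31b, Gpr33, Gpr34, Gpr35, Gpr37l1, Gpr50, Gpr63, Gpr89, Gpr132, Gpr143, Gpr146, Gpr153 and Gpr162, among them Gpr132, a receptor found on lymphocytes, at 11.7 in MZ and 8.59 in FO cells.

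The sequence before the transcription start is shown for the 3 genes past 2-fold in MZ cells and for Gna13, the alpha subunit whose 6 probe sets all lay on one side. Each is the 250 bases upstream of a RefSeq start in GRCm38.p6, read 5′ to 3′ on the gene's strand. Capitals mark TGGGAA or its reverse complement TTCCCA, the core bound by RBPJ, the DNA-binding partner of Notch receptors. Ffar2 has 4 annotated starts, of which the one furthest upstream is shown, and Arrb2 is named only. The stretch of Rgs10 and part of that of Grk5 lie inside the span RefSeq gives the gene, whose outermost start is further upstream, while those of Ffar2 and Gna13 end at the outermost start.
Rgs10 (chr7:128418173-128418422, minus strand): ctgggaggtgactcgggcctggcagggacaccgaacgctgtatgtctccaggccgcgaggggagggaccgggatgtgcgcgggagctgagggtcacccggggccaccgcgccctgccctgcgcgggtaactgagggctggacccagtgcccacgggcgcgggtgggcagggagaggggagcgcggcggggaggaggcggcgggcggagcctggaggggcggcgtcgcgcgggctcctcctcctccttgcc
Ffar2 (chr7:30823776-30824025, minus strand): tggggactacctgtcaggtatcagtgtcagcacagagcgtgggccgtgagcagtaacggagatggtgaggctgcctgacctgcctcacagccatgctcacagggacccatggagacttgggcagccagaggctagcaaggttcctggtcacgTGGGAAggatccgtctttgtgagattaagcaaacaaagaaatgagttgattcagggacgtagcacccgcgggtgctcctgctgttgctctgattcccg
Grk5 (chr19:60889499-60889748, plus strand): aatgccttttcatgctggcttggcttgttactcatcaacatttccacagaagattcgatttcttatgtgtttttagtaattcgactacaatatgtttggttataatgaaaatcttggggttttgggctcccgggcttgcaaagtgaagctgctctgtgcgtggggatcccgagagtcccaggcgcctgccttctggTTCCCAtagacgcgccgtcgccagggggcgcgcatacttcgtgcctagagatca
Gna13 (chr11:109362544-109362793, plus strand): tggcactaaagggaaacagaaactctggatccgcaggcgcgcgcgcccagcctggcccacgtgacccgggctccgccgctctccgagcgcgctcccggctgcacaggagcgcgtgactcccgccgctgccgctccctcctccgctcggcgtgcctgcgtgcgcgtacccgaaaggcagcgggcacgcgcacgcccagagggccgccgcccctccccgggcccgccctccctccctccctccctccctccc
The printed stretches of Ffar2 and Grk5 each hold 1 such core, and those of Rgs10 and Gna13 hold 0. Of the 32851 upstream stretches of this length in the RefSeq table, 21.6% hold at least 1. The E-box CAGCTG, found in 4271 of the 32851, and the ETS core GGAAGT with its reverse complement ACTTCC, found in 19.7%, are in none of the 4 printed stretches; TGGGAA and GGAAGT can overlap by sharing GGAA. Before the other 3 starts of Ffar2 there are 2, 1 and 1 RBPJ cores, the last a repeat of the same letters since those stretches overlap, and 1 ETS core. GC content was 76.4% for Rgs10 and 76.0% for Gna13, against 56.8% for Ffar2 and 49.6% for Grk5. A match of letters is a description of the sequence and not a binding site.

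RGS genes held the other large difference. Rgs10 encodes a small RGS protein that acts on Gi-class alpha subunits. Its signal was 141 in MZ and 25.4 in FO cells, 5.55-fold higher in MZ cells, a log2 ratio of 2.47. Both signals were above the floor, but only 1 probe set reports this gene, so no second probe set bears on it. At least 4-fold higher in MZ cells were 2 of the 42 genes, Ffar2 and Rgs10, and 35 of all 7695 measured genes (0.455%). Ffar2 was added to the set by name, and the set was chosen with earlier results of these data known. No excess over the array can therefore be read from these counts. Rgs10 is also expressed by macrophages and microglia, and macrophage markers were higher on the MZ array. All 8 measured of 10 macrophage and monocyte markers were higher there, 2 of them at least 2-fold, and their summed signal over the 10 was 204 in MZ and 82.5 in FO cells. Cd5l, C1qb, Cd68, Cd14 and Vcam1 were above the floor on the MZ array only, so their direction was fixed by the way they passed. Adgre1 was about equal, at 24.9 in MZ and 23.7 in FO cells, and C1qa and C1qc were below the floor on both arrays. Csf1r was at 42.5 in MZ and 17.3 in FO cells, Cd5l at 26.7 in MZ and 11.1 in FO cells, Lyz2 at 25.2 in MZ and 12.9 in FO cells, and C1qb at 24.5 in MZ and 2.93 in FO cells, with 0 of the 10 listed at 0. The 3 measured probe sets of Csf1r ran from 0.17 to 1.70 on the log2 scale. Markers of T, NK, dendritic, erythroid, neutrophil and platelet lineages held 0 genes past 2-fold among 16 measured. Only Prf1, at 36.8 in MZ and 21.1 in FO cells, had a signal above 25.3. The others could not reach 2-fold at this floor, so that count does not compare these lineages between the pools. Of 5 measured plasma cell markers, Prdm1 was 2.43-fold higher in MZ cells, at 30.9 in MZ and 12.7 in FO cells, and Sdc1 at least 5.39-fold lower, at 4.35 in MZ and 68.3 in FO cells. The 3 measured probe sets of Sdc1 ran from -2.43 to -0.32. The part of macrophages in the Rgs10 and Ffar2 differences was not tested.

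The other RGS genes above 2 times the floor were less than 2-fold apart. Rgs2, which prefers Gq among the alpha subunits, was at 839.8 in MZ and 816 in FO cells, and its 2 probe sets had log2 ratios of 0.04 and -0.05; the sign of the brighter one turned to -0.04 after quantile normalization. Rgs1, which restrains B cell responses to chemokines, was at 131 in MZ and 139 in FO cells, a log2 ratio of -0.09. Both genes are induced by B cell activation and by handling. Of 15 measured immediate-early and heat-shock genes, 6 were higher in MZ and 9 in FO cells, with 1, Atf3 at 247 in MZ and 52.5 in FO cells, past 2-fold.

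Rgs19, also known as GAIP and active on Gi-class alpha subunits, was at 62.0 in MZ and 51.0 in FO cells, with log2 ratios of 0.28 and 0.69 from its 2 probe sets. Rgs14, which carries a second domain that binds Gi, was at 33.4 in MZ and 46.7 in FO cells, a log2 ratio of -0.49. Rgs10 and Rgs14 belong to the same subfamily and lay on opposite sides. Rgs3, named after its values were seen, was at 24.5 in MZ and 35.4 in FO cells, and its 2 measured probe sets had log2 ratios of -0.53 and -0.24. The remaining 5 measured RGS genes were near background and could not reach 2-fold at this floor, so their closeness was not observed. With no floor, Rgs4 was past 2-fold in FO cells. They were Rgs4, Rgs5, Rgs9, Rgs16 and Rgs18, the last a gene of platelets at 15.5 in MZ and 4.75 in FO cells. Of 7 platelet markers on the array, 4 were measured, 2 higher in MZ and 2 in FO cells, with a summed signal over the 7 of 60.1 in MZ and 57.1 in FO cells. On the MZ array 5 of the 7 were below the floor and on the FO array 4, so these sums too are mostly of dim signals. Treml1 was at 19.5 in MZ and 3.03 in FO cells and Itga2b at 20.4 in MZ and 16.3 in FO cells. Itgb3 was at 7.22 in MZ and 15.5 in FO cells and Gp1bb at 2.47 in MZ and 14.3 in FO cells. Pf4, Ppbp and Gp9 were below the floor on both arrays. The part of platelets in the Rgs18 signals was not tested. Below the floor were the 6 genes Rgs6, Rgs7, Rgs8, Rgs11, Rgs17 and Rgs20.

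**Figure D2:**
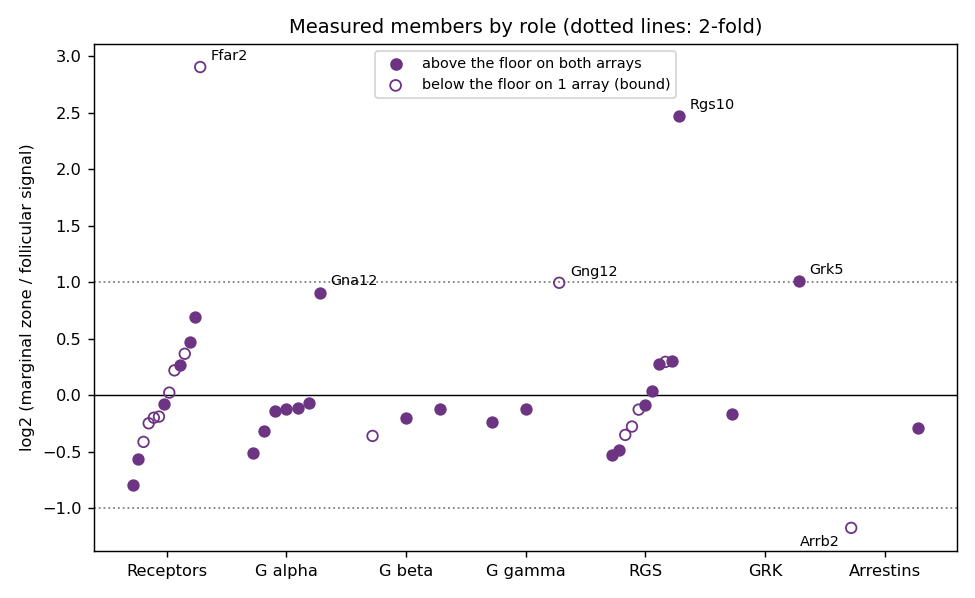
Log2 ratio of MZ over FO signal for the 42 measured genes, grouped by role and ordered by value within each role, with filled circles for genes above the floor on both arrays and open circles for bounds. Ffar2, Rgs10 and Grk5 lie at or above the upper 2-fold line and Arrb2 below the lower one, while all G beta genes lie between -0.36 and -0.12.

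None of the 13 measured alpha, beta and gamma subunit genes reached 2-fold, although 2 of them, Gnb4 and Gng12, have only a bound, and Gng12 passed 2-fold under each of the 4 other scalings. In the main processing 5 of the 13 were near background, with no signal above 2 times the floor, and so could not reach 2-fold. Of the 8 above 2 times the floor, 7 had the lower signal in MZ cells, with log2 ratios from -0.51 to -0.11, and each of the 7 kept its sign under the 4 other scalings. The gamma subunit gene Gng5 lies outside this count because its probe sets also name a pseudogene. Its bright probe sets went the other way, at 0.35 and 0.29, and a dim one was at -0.18. Over all genes above 2 times the floor, 2535 were higher in MZ and 2730 in FO cells. The differences are small: 6 of the 7 were below 0.43, the SD of log2 ratios among probe sets of the same gene over the whole array.

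Among the alpha subunits, Gnai2, the Gi subunit through which chemokine receptors move lymphocytes, had the lowest ratio by the brightest probe set; by the mean of measured probe sets Gna13 was lower, at -0.61 against -0.44. Its signal was 311 in MZ and 443 in FO cells, 1.43-fold lower in MZ cells, and the other probe set, at 153 in MZ and 197 in FO cells, gave -0.37 on the log2 scale. Gnai3, a second Gi subunit, was at 407 in MZ and 439 in FO cells, with log2 ratios of -0.11 and -0.34 from 2 probe sets. Gnas, the Gs subunit that activates adenylyl cyclase, was at 671 in MZ and 836 in FO cells, a log2 ratio of -0.32, with a dim second probe set at 0.10. Gna11, of the Gq class, was near background at 16.3 in MZ and 17.8 in FO cells, and its 2 probe sets went opposite ways, at -0.12 and 0.48. Gnao1, mainly a neuronal subunit, was near background at 13.2 in MZ and 13.8 in FO cells. Gnaq, the other main Gq subunit, was below the floor on both arrays by its 1 probe set, at 4.55 in MZ and 3.54 in FO cells, as were Gna14, Gna15, Gnai1, Gnat1, Gnat2, Gnaz and the antisense gene Gnasas1.

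The 2 subunits of the G12/13 class, which hold B cells in place, lay on opposite sides. Gna13 had 6 measured probe sets, all lower in MZ cells. The brightest was at 693 in MZ and 765 in FO cells, a log2 ratio of only -0.14. The other 5 ran from -1.28 to -0.35, and the mean of the 6 was -0.61. The lowest belonged to a probe set at 71.5 in MZ and 174 in FO cells. Probe sets of 1 gene share the RNA sample and differ in the transcript stretch they bind, so their shared sign is not a replicate of the comparison. Gna12 was at 30.9 in MZ and 16.5 in FO cells, 1.87-fold higher in MZ cells, by 1 of its 5 probe sets. The other 4 were below the floor on both arrays.

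The beta and gamma subunits form the pair that is set free together with the alpha subunit and that activates phosphoinositide 3-kinase gamma. Gnb1 was at 171 in MZ and 197 in FO cells, with log2 ratios of -0.21 and -0.08. Gnb2 was at 122 in MZ and 133 in FO cells, and Gnb4 was near background at 8.51 in MZ and 16.3 in FO cells. Of the gamma subunits, Gng10 was at 257 in MZ and 279 in FO cells, a log2 ratio of -0.12. Gng12, named after its values were seen, lay just under the threshold: its brighter probe set was at 25.2 in MZ and 8.49 in FO cells, at least 1.99-fold higher in MZ cells. Its second probe set went the other way, at -0.23. Gng3, also near background, was at 16.9 in MZ and 19.9 in FO cells. Below the floor were Gnb3, Gnb5, Gng2, Gng4, Gng11 and Gng13.

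**Figure D3:**
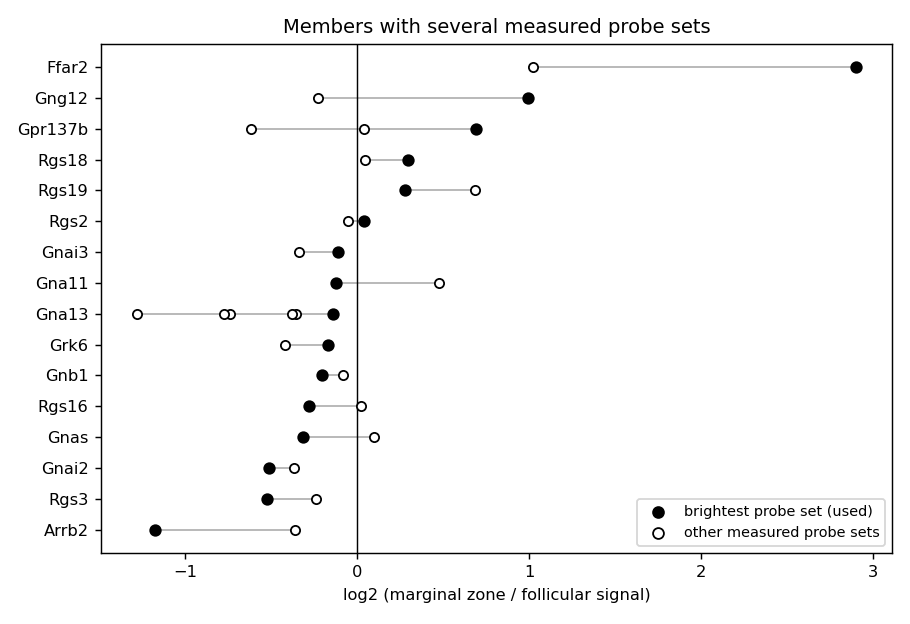
Log2 ratios of MZ over FO signal for the 16 genes with several measured probe sets, with the probe set used as a filled circle and the others as open circles. All 6 probe sets of Gna13 lie below 0, both of Ffar2 lie above 1, and those of Gng12 and Gpr137b fall on both sides of 0.

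Of these 16 genes, 10 had all measured probe sets on one side of 0 and 6 did not. Over all genes with several measured probe sets, 1555 of 2622 had them on one side. Among the probe sets of these 16 genes the SD was 0.49.

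Receptor kinases and arrestins switch receptors off after use. Grk5 was at 30.8 in MZ and 15.3 in FO cells, 2.02-fold higher in MZ cells by its 1 probe set, which puts it at the threshold. Grk6, which phosphorylates the chemokine receptor Cxcr4, was at 95.5 in MZ and 108 in FO cells, with log2 ratios of -0.17 and -0.42 from 2 probe sets. Grk1 and Grk4 were below the floor.

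Arrb2, an arrestin that binds phosphorylated receptors and leads them to internalisation, was dim in both populations. Its brightest probe set was at 10.8, below the floor, in MZ cells and at 28.6 in FO cells, at least 2.26-fold lower in MZ cells. The other probe set was at 3.46, also below the floor, in MZ and 16.3 in FO cells, so its log2 ratio of -0.36 is a bound too. With the mean of both probe sets the log2 ratio of Arrb2 was -0.77 and no longer past 2-fold, but this is a mean of bounds set by the floor. Arrb1, the other arrestin of this kind, was near background at 14.3 in MZ and 17.5 in FO cells.

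Genes that act with these proteins were taken from 3 lists, to be read beside the 4.39% and 4.86% of all measured genes past 2-fold in MZ and FO cells and their median of -0.03. Of all measured genes, 3677 were higher in MZ and 4018 in FO cells. Of 14 measured receptors with known ligands, 1 was at least 2-fold higher in MZ and 2 in FO cells, and the median log2 ratio was -0.22. Ptger3, Lpar1 and Hrh2 were above the floor on the FO array only, and P2ry14 on the MZ array only. Their direction was fixed by the way they passed. Cnr2, a cannabinoid receptor coupled to Gi, was at 97.5 in MZ and 328 in FO cells. S1pr4, a sphingosine-1-phosphate receptor, was at 33.7 in MZ and 80.5 in FO cells, and Ccr7, the chemokine receptor that draws lymphocytes to T cell zones, at 172 in MZ and 299 in FO cells. P2ry14, a receptor for UDP-sugars, was at 28.1 in MZ and 5.46 in FO cells, at least 2.22-fold higher in MZ cells.

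Of 16 measured effectors, 1 was past 2-fold, and the median log2 ratio was -0.18, with 5 higher in MZ and 11 in FO cells. Among the 11, Plcb1, Adcy2, Kcnj3 and Kcnj6 were above the floor on the FO array only, so their direction was fixed by the way they passed. Arhgef12, an exchange factor driven by the G12/13 class, was at 45.8 in MZ and 21.5 in FO cells, 2.13-fold higher in MZ cells, and its 2 probe sets gave 1.09 and 0.90. Arhgef1, a second exchange factor of that class, was at 130.4 in MZ and 81.0 in FO cells, 1.61-fold higher in MZ cells. Pik3cg, the catalytic subunit of phosphoinositide 3-kinase gamma, was at 54.5 in MZ and 108 in FO cells, with 2 probe sets at -0.98 and -1.09. Plcb2, the phospholipase C of Gq and beta-gamma signals, was at 26.2 in MZ and 39.4 in FO cells.

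Among the measured regulators of G proteins outside the RGS family was Homer3, above the floor on the MZ array only, so its direction was fixed. Of these 13 regulators, 10 were higher in MZ and 3 in FO cells, with a median log2 ratio of 0.23 and 1 gene past 2-fold. That gene was Rap1gap, which switches off the GTPase Rap1 and binds Gi-class alpha subunits, at 86.0 in MZ and 14.96 in FO cells, 5.75-fold higher in MZ cells by 1 probe set. Ric8a, a chaperone of newly made Gi, Gq and G12/13 alpha subunits, was at 457 in MZ and 240.8 in FO cells, 1.90-fold higher in MZ cells, and its 3 probe sets ran from 0.75 to 1.57. Gpsm3, which holds Gi alpha subunits in the GDP form, was at 23.6 in MZ and 12.9 in FO cells. Snx14, a sorting nexin with an RGS domain, was at 36.6 in MZ and 22.8 in FO cells.

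**Figure D4:**
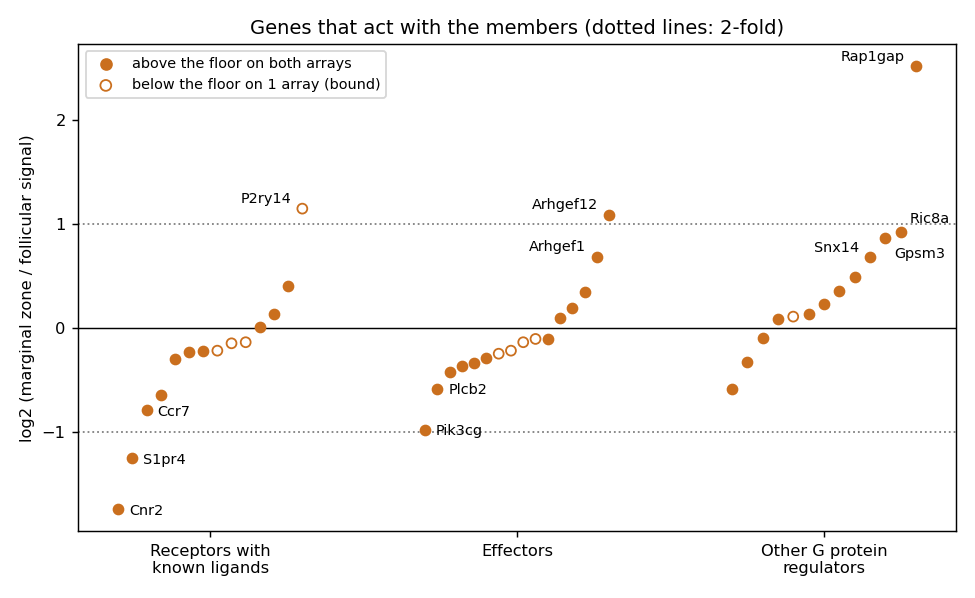
Log2 ratios of MZ over FO signal for measured genes of 3 lists, ordered by value within each list, with filled circles for genes above the floor on both arrays and open circles for bounds. Rap1gap at 2.52 stands highest and Cnr2 at -1.75 lowest, and the 4 genes furthest from 0 in each list are named.

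Upstream sequence was found for 59 of the 80 genes. The median number of CpG dinucleotides in the 250 bases before the start, averaged over a gene's starts, was 18 for the 17 matched genes above 2 times the floor, 14 for the 15 near background and 7 for the 27 below the floor, beside 13.5 for all 9882 matched genes on the array. The groups go by the higher of a gene's 2 signals, so these are descriptions of promoters and bear on no difference between the populations.

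The processing was varied in 10 ways, apart from the fold threshold. Ffar2 and Rgs10 stayed past 2-fold under each of them, Grk5 fell under the threshold when the floor was replaced by a pseudocount of the same size, and Arrb2 did so with that pseudocount and with the mean of its probe sets; neither Grk5 nor Arrb2 was measured with the floor at the 75th percentile.

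**Figure D5:**
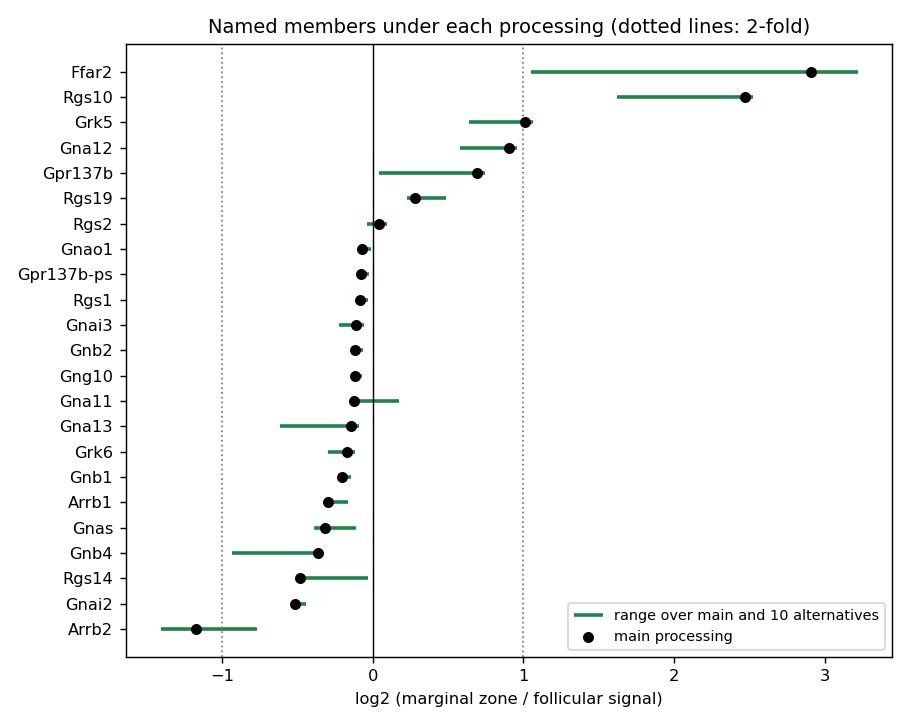
Log2 ratios of MZ over FO signal for 23 named genes, as black points for the main processing and green bars for the range over it and 10 alternatives. Ffar2 and Rgs10 stay above 1 throughout, whereas the bars of Grk5 and Arrb2 cross the 2-fold line.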

How the data were processed

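Each array carried 1 biotin-labelled sample. The deposited table gives each probe set 1 linear intensity per array, which per the submitters' processing notes is a MAS5 signal; neither its version nor its scaling target is known here. Per the labels' protocols, about 100 ng of total RNA was amplified with the manufacturer's 2-cycle protocol, which favours the 3′ ends of transcripts.

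Arrays were scaled to equal 2% trimmed means (factors 0.990 for marginal zone and 1.01 for follicular), with Python 3.11.15, numpy 2.4.6 and pandas 2.3.3. Of 22626 probe sets, 20380 had 1 gene in the platform's annotation, 131 of them of the set described here. Each gene was read from whichever of its measured probe sets was brightest by mean log2 signal. All 80 genes had an entry in RefSeq (GRCm38.p6). The ratio procedure was tested on simulated data. The planted changes were well past 2-fold and in bright genes, so recovery of changes in dim genes or near 2-fold was not tested. Named were genes past 2-fold, the 15 brightest, the brightest of each role, all measured alpha, beta, kinase and arrestin genes, and up to 4 genes per list furthest from 0. Members, lists and roles were chosen with earlier results of these data known. Precision is limited by the number of arrays. The alternatives were 4 scalings, 2 floors, no floor, a pseudocount, 2 rules for probe sets and thresholds of 1.5-fold and 3-fold.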

Additional observations from a re-analysis of the deposited data

How the results depend on the processing

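No paired analysis was possible because each population has 1 array and no result comes from a test. For the same reason no replicate could be left out. With the floor at the 25th percentile, 72 genes counted as measured, 10 at least 2-fold higher in MZ and 5 in FO cells. Of all genes measured at that floor, 11.6% and 12.6% were. With the floor at the 75th percentile, 16 genes counted as measured, 2 past 2-fold in MZ and 0 in FO cells, beside 3.20% and 3.66% of all genes. With no floor, only a minimum signal of 1, 5 genes were past 2-fold in each direction, beside 10.2% in MZ and 11.3% in FO cells of all genes. With the mean of measured probe sets, 0 genes were at least 2-fold higher in FO cells, where 4.22% of all genes were. At 1.5-fold the counts were 6 in MZ and 2 in FO cells, and at 3-fold the FO count was 0. Without the shares of all genes at these thresholds, no lean can be read from those counts. With a pseudocount of 12.7 for the floor the counts stayed at 3 and 1, but Gpr37 and Rgs4, both near background, stood where Grk5 and Arrb2 had been. Of all measured genes, 3.43% in MZ and 4.05% in FO cells were then past 2-fold. The other alternatives kept the counts within 1.5 times, and the median log2 ratio lay between -0.12 and -0.06 in all 11 processings. Under the 4 other scalings Gng12 was also past 2-fold, where the median of all genes ran from -0.02 to 0.02.

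Ffar2 and Rgs10 stayed at least 2-fold higher in MZ cells in all 11 processings, with lowest log2 ratios of 1.05 and 1.62, both with the floor at the 75th percentile. Grk5 was past 2-fold in 9 of the 10 in which it was measured (lowest 0.64) and Arrb2 in 8 of 10 (nearest to 0 at -0.77). Of 23 named genes, 21 kept their sign wherever measured; Rgs2 and Gna11 did not. Signals near the floor limit all dim genes named here.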

Other observations

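Probe sets annotated to more than 1 gene were outside the set, and 7 of them named a gene of these families together with its pseudogene. For the gamma subunit gene Gng5 and its pseudogene, the bright probe sets were at 759.8 in MZ and 594.6 in FO cells and at 490.1 in MZ and 400.2 in FO cells, log2 ratios of 0.35 and 0.29, and a dim one was at -0.18. For Gpr137b and its pseudogene, 4 such probe sets ran from -0.60 to 0.66, the brightest at 268 in MZ and 169 in FO cells.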
